A study of Mus musculus with 8 samples.

Results

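Cyclins and the kinases they switch on were examined in mouse gastric cancers and in normal tissue of the same site. The group consisted of 10 genes taken by symbol: the D-type cyclins Ccnd1, Ccnd2 and Ccnd3, the E-type cyclins Ccne1 and Ccne2, the A-type cyclin Ccna2, the B-type cyclin Ccnb1, and the cyclin-dependent kinases Cdk1, Cdk2 and Cdk4. All 10 were found among the 23361 genes of the expression table, and all 10 passed the filter on low values. They were found in the table by symbol, with no threshold on their values, and the list itself was drawn up with earlier results of these data known.

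RNA was sequenced from 5 cancers of the squamous-columnar junction (SCJ), the border between the squamous forestomach and the glandular stomach, and from the SCJ of 3 control stomachs. The cancers, labelled Trp53-/-Rb1-/-, arose in mice with floxed alleles of both genes (Trp53 loxP/loxP and Rb1 loxP/loxP), the Lgr5-eGFP-Ires-CreERT2 knock-in and the Ai9 reporter, and were dissected 250 days or more after tamoxifen. Tamoxifen activates this Cre only in cells that express Lgr5, whose descendants inherit the deletions, and the tdTomato of the Ai9 reporter guided the dissection, so other cells of a tumor keep both genes. The controls are labelled wild type and came from mice of matching age, and whether they carried Cre or the reporter is not given in the sources used here. The study's methods mention tamoxifen for control mice of the tumor induction experiments, without saying whether these were the controls sequenced. The sex of the mice and any pooling are not given in the sources used here, and while the 3 controls are 3 stomachs, it is not stated that the 5 tumors came from 5 mice, so p-values measure the spread between these libraries.

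D-type cyclins appear first in a dividing cell. With Cdk4 or Cdk6 they phosphorylate the retinoblastoma protein, the product of Rb1, which otherwise holds back the E2F transcription factors. E-type cyclins with Cdk2 drive entry into DNA synthesis, cyclin A2 works with Cdk2 during synthesis and with Cdk1 after it, and cyclin B1 with Cdk1 drives mitosis. Genes for the E-type cyclins, Ccna2 and Cdk1 are textbook targets of E2F, whereas D-type cyclins respond to growth signals upstream of the retinoblastoma protein.

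Values are FPKM (fragments mapped per transcript length and library size, made by the authors with Cuffnorm, whose scaling option between libraries is not given in the sources used here), which were rounded to whole numbers before deposit. They are levels per transcript length, so that genes can be compared within a library. Read depth is unknown, and at levels of a few FPKM the rounding is a large part of the value. FPKM summed to between 403569 and 573858 in the cancers and to between 887141 and 992550 in the controls, and the 10 most abundant genes took 11.1 to 19.6% and 39.3 to 44.3% of these sums. For this reason each member's difference is also given after rescaling every library to the same sum (TPM), where the median of the log2 fold changes over all 14357 genes tested moved from -0.04 to 0.81. Rb1 had FPKM of 4 to 6 in cancers against 9 to 10 in controls, and Trp53 of 12 to 30 against 16 to 19. Their log2 fold changes were -0.90 and -0.08 on FPKM (limma adjusted p = 0.0059 and 0.87) but -0.05 and 0.86 on TPM (limma adjusted p = 0.84 and 0.020). The call of Rb1 thus depends on the scaling. Against the median of all genes, Rb1 stood at -0.86 on both scales, and Trp53 at -0.04 on FPKM and 0.05 on TPM. With quantile normalization Rb1 was called lower (-0.90, limma adjusted p = 0.015). FPKM sums over a whole gene, so loss of the floxed exons alone cannot be read from it. In bulk tissue, fewer cells of a type and less RNA per cell cannot be told apart. Cancer 1 held B-lymphocyte genes (summed FPKM of the 5 lymphocyte markers 125, against 0 to 4 in the other libraries), and cancer 5 hepatocyte genes (445 against 1 to 58 for 4 markers). Pgc, a pepsinogen abundant in control 1 (28832 FPKM), was listed at 0 in controls 2 and 3, so a single value of 0 in these data can be a failed estimate.

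The sequences before the transcription start were available for 6 of the 10 members, with 7 windows of 300 bases (250 before and 50 after the start, from RefSeq, build GRCm38.p6, the assembly behind mm10). They were searched on both strands for the E2F site (TTTCCCGC, TTTCGCGC, TTTGCCGC or TTTGGCGC), for the cell cycle homology region (CHR, TTTGAA or TTCGAA), which is bound by the complexes that time mitotic genes, and for the CCAAT box. Of 32851 windows of this length, 2.26% held the E2F site, 19.2% the CHR and 37.4% the CCAAT box. Windows of Cdk1 and Ccnb1, which rose in the cancers, and of Cdk2, which did not pass the test, are shown with matches in capitals, in the direction of transcription. A match on the opposite strand reads in reverse complement, so that a CCAAT box appears as ATTGG.
Cdk1, chr10:69352863-69353162, minus strand: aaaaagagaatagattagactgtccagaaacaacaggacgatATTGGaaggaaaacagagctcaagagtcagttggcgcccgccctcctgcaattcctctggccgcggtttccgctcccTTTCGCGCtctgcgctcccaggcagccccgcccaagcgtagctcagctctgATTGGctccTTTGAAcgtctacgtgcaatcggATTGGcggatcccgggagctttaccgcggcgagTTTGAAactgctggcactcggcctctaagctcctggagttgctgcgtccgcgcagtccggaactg
Ccnb1, chr13:100786437-100786736, minus strand: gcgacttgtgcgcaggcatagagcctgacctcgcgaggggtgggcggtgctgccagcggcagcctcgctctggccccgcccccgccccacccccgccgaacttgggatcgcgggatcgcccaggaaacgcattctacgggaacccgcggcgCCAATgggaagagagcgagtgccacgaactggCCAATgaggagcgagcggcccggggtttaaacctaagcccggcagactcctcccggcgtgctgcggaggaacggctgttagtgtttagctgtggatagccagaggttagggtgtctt
Cdk2, chr10:128705002-128705301, minus strand: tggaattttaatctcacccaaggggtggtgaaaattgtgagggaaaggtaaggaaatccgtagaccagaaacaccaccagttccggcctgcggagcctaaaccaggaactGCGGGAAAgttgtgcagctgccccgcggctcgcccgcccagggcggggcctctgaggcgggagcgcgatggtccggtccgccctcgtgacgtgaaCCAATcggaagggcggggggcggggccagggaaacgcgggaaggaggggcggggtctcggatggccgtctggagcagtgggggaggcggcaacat
The Cdk1 window held 1 E2F site (TTTCGCGC, first base 131 before the start), 2 CHR (first bases 71 and 15 before the start) and 3 CCAAT boxes, all 3 on the opposite strand. The Ccnb1 window held 2 CCAAT boxes, 99 and 67 bases before the start, and no match to the other letters. The Cdk2 window held 1 E2F site on the opposite strand and 1 CCAAT box. No matches to different motifs overlapped in these 3 windows. Of the other windows, 1 of the 2 of Ccnd3 held a CCAAT box, and those of Ccne1 and Cdk4 held no match to any of these letters. These matches describe the sequence and do not show binding.

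In the cancers the mitotic kinase Cdk1 and its partner Ccnb1 rose and the D-type cyclin Ccnd2 fell. On FPKM, 2 of the 10 genes were higher and 1 was lower at an adjusted p under 0.05 (limma), beside 16.2% of all genes tested that were higher and 18.3% that were lower. Both the E-type cyclins, Ccna2 and Cdk4 had positive fold changes that did not pass, although 6 of the 10 members were higher at an unadjusted p under 0.05, as were 22.6% of all genes tested. Without control 2 or control 3 no member was called higher (4 and 3 at an unadjusted p under 0.05, as were 18.1 and 18.2% of all genes), while both calls stood without control 1. The log2 fold changes without control 2 or 3 were 1.27 and 1.27 for Ccnb1 (1.43 with all libraries) and 1.27 and 1.38 for Cdk1 (1.45). Over all genes, leaving out any 1 control lowered the number called from 4948 to between 2490 and 2815. Both calls were also lost without cancers 1 and 5 together, and that of Ccnb1 without cancer 3. With TPM, 8 were higher and 1 lower, where 50.0% and 3.68% of all genes tested were. The median log2 fold change of the 10 was 0.63 with FPKM (all genes -0.04) and 1.59 with TPM (all genes 0.81).

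**Figure D1:**
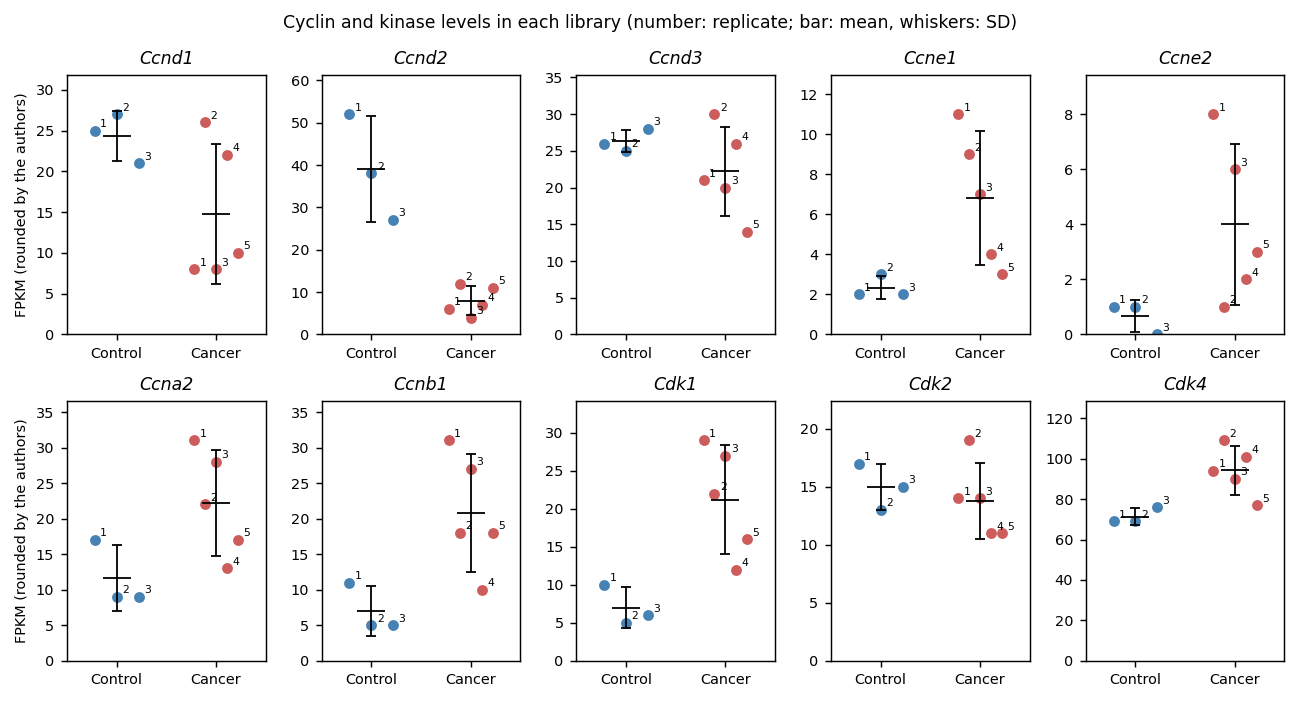
FPKM of each member (vertical axes, linear from 0) in the 3 controls (blue) and 5 cancers (red), with replicate numbers beside the points, means as bars and SD as whiskers. Every cancer lies below every control for Ccnd2 and above every control for Cdk1 and Cdk4, as for 19.8% and 14.4% of all genes tested.

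Ccnd2 encodes cyclin D2 (chromosome 6, 127125162 to 127152188 in RefSeq). It had FPKM of 52, 38 and 27 in controls 1 to 3 and of 6, 12, 4, 7 and 11 in cancers 1 to 5. Every cancer lay below every control, as for 19.8% of all genes tested. Mean FPKM were 39.0 ± 12.5 (SD, n = 3) in controls and 8.0 ± 3.39 (SD, n = 5) in cancers, and Ccnd2 fell by 2.19 on the log2 scale (SE 0.36, limma adjusted p = 0.0045; exact permutation p = 0.018, two-sided, the smallest that 5 against 3 allow). Ccnd2 was the 1 member that was called under all 16 alternative settings, with log2 fold changes between -2.42 and -1.31, the latter with TPM (limma adjusted p = 0.014). The overlapping non-coding gene 9330179D12Rik, which shares its locus in the table, was listed at 0 throughout.

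Ccnd1 encodes cyclin D1 (chromosome 7, 144929931 to 144939831). Its FPKM were 25, 27 and 21 in the controls and 8, 26, 8, 22 and 10 in the cancers. On FPKM, cancers 2 and 4 lay within the range of the controls and cancers 1, 3 and 5 far below it, with no value in between. This placement depends on the scaling. On TPM, cancers 2 and 4 (45.3 and 39.3) lay above every control (21.2 to 30.4). Cancer 5 (22.4) lay within the range of the controls, and cancers 1 and 3 (19.8 and 18.2) below it. As a group the cancers had a log2 fold change of -0.84 (95% interval -1.81 to 0.13, limma adjusted p = 0.15), and with TPM 0.08 (limma adjusted p = 0.85), which is 0.73 below the median of all genes on that scale.

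The split among the cancers went along with the amount of gastric surface transcripts. The summed FPKM of 6 pit and mucous cell markers (Muc5ac, Gkn1, Gkn2, Tff1, Muc6 and Tff2, all in the table) was 691, 5226 and 15908 in cancers 1, 3 and 5, and 46224 and 72677 in cancers 4 and 2. In the controls it was 146212 to 214340. Among the cancers Ccnd1 had the same order, with cancers 1 and 3 tied. This order was not particular to surface transcripts. The FPKM sums of the libraries followed it, with 403569, 438744, 445770, 559720 and 573858 in cancers 1, 3, 5, 4 and 2. Simple epithelial markers (Epcam, Krt8, Krt18 and Krt19) did so too, with summed FPKM of 673, 1185, 1956, 2820 and 4477. Muc5ac and Muc6 were listed at 0 in cancer 1. The part of surface cells, or of the scaling between libraries, in the Ccnd1 level was not tested.

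Ccnd3 encodes cyclin D3 (chromosome 17, 47505051 to 47599689). It had FPKM of 26, 25 and 28 in the controls and 21, 30, 20, 26 and 14 in the cancers. The groups overlapped, and the log2 fold change was -0.28 (95% interval -0.81 to 0.26, limma adjusted p = 0.36). With TPM it was 0.67 (limma adjusted p = 0.022), close to the median shift of all genes, so the sign of this difference depends on the scaling.

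Shares within a library do not depend on the scaling. Ccnd2 made up 50.5, 42.2 and 35.5% of the summed FPKM of the 3 D-type cyclins in the controls and 17.1, 17.6, 12.5, 12.7 and 31.4% in the cancers. Ccnd3 made up 25.2 to 36.8% in the controls and 40.0 to 62.5% in the cancers. Neither share overlapped between the groups, whereas the Ccnd1 share did (24.3 to 30.0% and 22.9 to 40.0%). The shares of a library add up to the whole, so the higher Ccnd3 share is not separate from the lower Ccnd2 share. Ccnd2 was thus the most abundant D-type cyclin in controls 1 and 2, and Ccnd3 in all 5 cancers. In control 3, Ccnd3 (28 FPKM) stood 1 FPKM above Ccnd2.

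**Figure D2:**
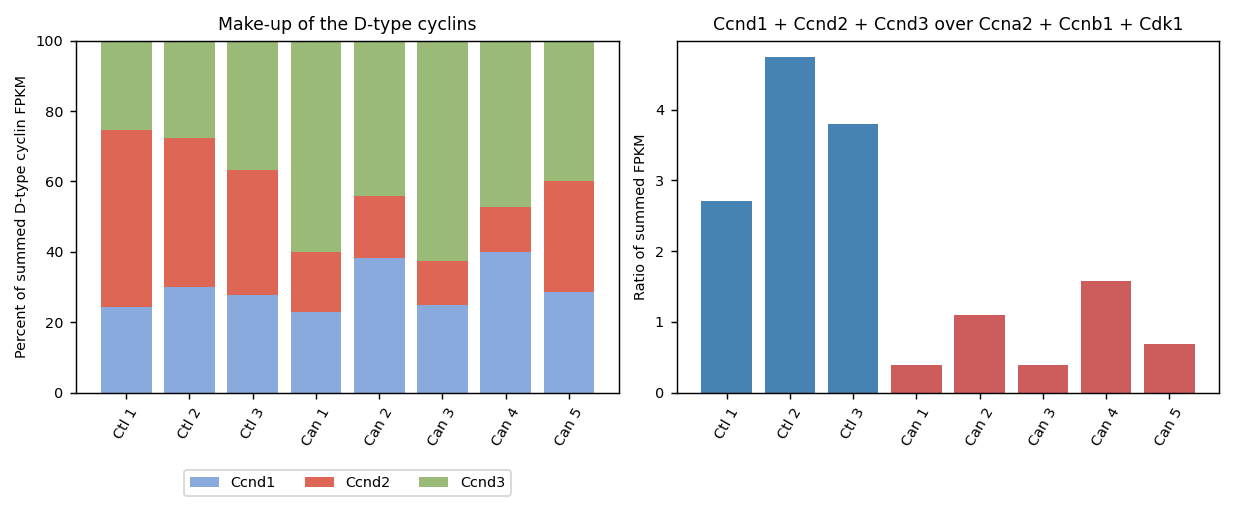
Left, percent of the summed FPKM of Ccnd1, Ccnd2 and Ccnd3 taken by each in the 3 controls (Ctl) and 5 cancers (Can); right, ratio of the summed FPKM of these D-type cyclins to that of Ccna2, Ccnb1 and Cdk1. The Ccnd2 share is 35.5 to 50.5% in the controls and 12.5 to 31.4% in the cancers, and the ratio is 2.71 to 4.74 in the controls and 0.38 to 1.57 in the cancers.

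Cdk4 and Cdk6, the kinase partners of the D-type cyclins, differed in level. Cdk6 had FPKM of 2, 1 and 1 in the controls and 0, 1, 0, 0 and 1 in the cancers, too low to compare. Cdk4 (chromosome 10, 127063535 to 127067288) was the most abundant member in all 8 libraries, with FPKM of 69, 69 and 76 in the controls and 94, 109, 90, 101 and 77 in the cancers. Every cancer lay above every control, as for 14.4% of all genes tested, cancer 5 by 1 FPKM. The log2 fold change of Cdk4 was 0.39 (SE 0.14, limma adjusted p = 0.065; two-sided exact permutation test, p = 0.036), and with TPM 1.36 (limma adjusted p = 0.00067), 0.55 above the median of all genes. Besides TPM, Cdk4 passed with quantile normalization (0.86, limma adjusted p = 0.0083), without cancer 5 (limma adjusted p = 0.028) and without cancers 1 and 5 together (limma adjusted p = 0.035). Tspan31, which overlaps Cdk4, had a mean of 59.3 ± 7.51 (SD, n = 3) FPKM in the controls and 59.0 ± 5.39 (SD, n = 5) in the cancers.

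Ccne1 encodes cyclin E1 (chromosome 7, 38097984 to 38107490). Its FPKM were 2, 3 and 2 in the controls and 11, 9, 7, 4 and 3 in the cancers. Cancer 5 equalled control 2, and the other cancers lay above every control. The log2 fold change was 1.12 (SE 0.38, limma adjusted p = 0.052), just short of the threshold. It passed in 6 of 16 alternative settings, among them TPM (2.004, limma adjusted p = 0.0066) and a pseudocount of 0.1 (limma adjusted p = 0.0495), and over all 16 the adjusted p ran from 0.0066 to 0.15.

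Ccne2 encodes cyclin E2 (chromosome 4, 11190433 to 11204779). It had FPKM of 1 and 1 in controls 1 and 2, was listed at 0 in control 3, and had 8, 1, 6, 2 and 3 in the cancers. The log2 fold change was 1.45 (SE 0.52, limma adjusted p = 0.064), and cancer 2 stayed at the level of the controls. Of 15 alternative settings it passed in 2, without cancer 2 (1.72, limma adjusted p = 0.029) and with TPM (2.26, limma adjusted p = 0.020), and over all 15 the adjusted p ran up to 0.20. A pseudocount of 0.1 gave a log2 fold change of 2.71 (limma adjusted p = 0.068), so its size at these low levels depends on the pseudocount. Its neighbour Ints8, which overlaps Ccne2, had FPKM of 17, 6, 15, 10 and 9 in cancers 1 to 5, against 10, 9 and 6 in controls 1 to 3, also highest in cancers 1 and 3. Whether reads of Ints8 add to Ccne2 was not tested. Both E-type cyclins were the least abundant members in the controls.

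Cdk2, the kinase of the E-type cyclins, lies on chromosome 10 (128697938 to 128705051). It had FPKM of 17, 13 and 15 in the controls and 14, 19, 14, 11 and 11 in the cancers. The log2 fold change was -0.13 (95% interval -0.59 to 0.32, limma adjusted p = 0.62). With TPM it was 0.80 (limma adjusted p = 0.018), which lies 0.01 below the median of all genes. Cdk4 was 4.06 to 5.31 times as abundant as Cdk2 in the controls and 5.74 to 9.18 times in the cancers, a ratio that does not depend on the scaling and did not overlap.

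Ccna2 encodes cyclin A2 (chromosome 3, 36564865 to 36573038). Its FPKM were 17, 9 and 9 in the controls and 31, 22, 28, 13 and 17 in the cancers. Control 1 lay above cancer 4 and equalled cancer 5. The log2 fold change was 0.87 (95% interval 0.11 to 1.63, limma adjusted p = 0.073), and 1.82 with TPM (limma adjusted p = 0.0061). Of 16 alternative settings Ccna2 passed in 3, the others being quantile normalization (1.10, limma adjusted p = 0.047) and the fit without cancer 4 (1.03, limma adjusted p = 0.037). Exosc9, which overlaps Ccna2, ranged from 8 to 16 FPKM in controls and from 11 to 14 in cancers.

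Ccnb1 encodes cyclin B1 (chromosome 13, 100778739 to 100786486). It had FPKM of 11, 5 and 5 in the controls and 31, 18, 27, 10 and 18 in the cancers. Cancer 4 lay below control 1, and the other cancers above every control. Mean FPKM were 7.0 ± 3.46 (SD, n = 3) in controls and 20.8 ± 8.29 (SD, n = 5) in cancers, and Ccnb1 rose by 1.43 on the log2 scale (SE 0.39, limma adjusted p = 0.027; two-sided exact permutation test, p = 0.036). Ccnb1 no longer passed without cancer 3 (adjusted p = 0.064), without control 2 (adjusted p = 0.098) or control 3 (adjusted p = 0.099), or without cancers 1 and 5 together (adjusted p = 0.10), all from limma.

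Cdk1, the mitotic kinase, lies on chromosome 10 (69335146 to 69352912). Its FPKM were 10, 5 and 6 in the controls and 29, 22, 27, 12 and 16 in the cancers. Every cancer lay above every control, as for 14.4% of all genes tested. Controls had a mean of 7.0 ± 2.65 (SD, n = 3) FPKM and cancers of 21.2 ± 7.19 (SD, n = 5), so that Cdk1 rose by 1.45 on the log2 scale (SE 0.33, limma adjusted p = 0.014; two-sided exact permutation test, p = 0.018). Cdk1 lost its call without control 2 (adjusted p = 0.059), without control 3 (adjusted p = 0.055) and without cancers 1 and 5 together (adjusted p = 0.051), all from limma. With TPM the log2 fold changes of Ccnb1 and Cdk1 were 2.39 and 2.41, which is 1.57 and 1.60 above the median of all genes.

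Cyclin B1 and its kinase kept step in every library. The ratio of Ccnb1 to Cdk1 FPKM was 0.98 ± 0.13 (SD, n = 3) in the controls and 0.97 ± 0.14 (SD, n = 5) in the cancers, between 0.82 and 1.13 in all. Both were highest in cancers 1 and 3 and lowest, among the cancers, in cancer 4.

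**Figure D3:**
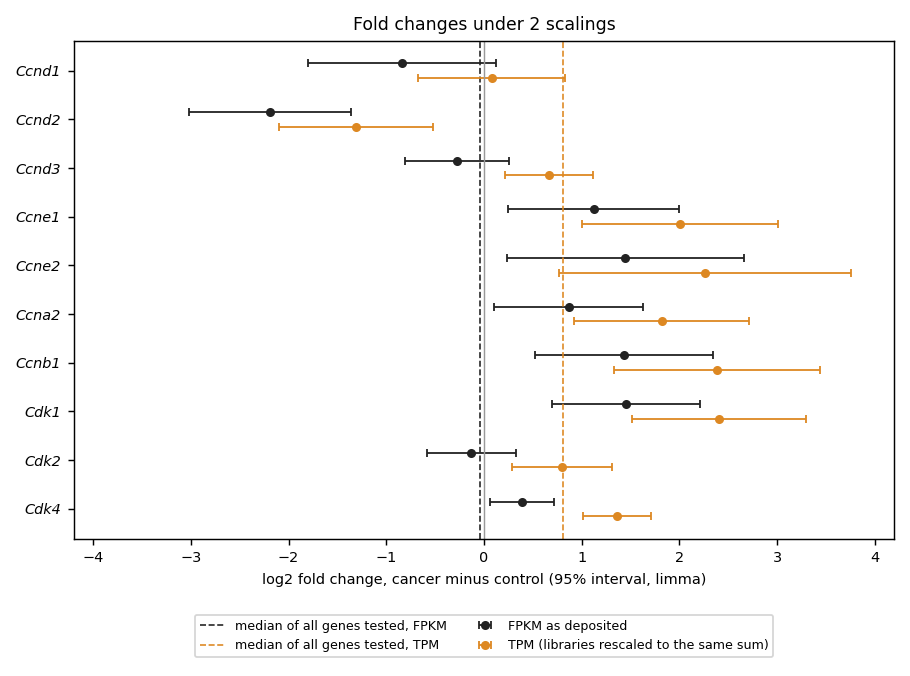
Log2 fold change of each member (points) with its 95% interval (whiskers) from limma, on FPKM as deposited (black) and on TPM (orange); dashed lines give the median of all genes tested on each scale (-0.04 and 0.81). Intervals are unadjusted: on both scales that of Ccnd2 lies below the line and those of Ccne1, Ccna2, Ccnb1, Cdk1 and Cdk4 lie above it.

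The order of the members changed between the groups. In the controls the means ran from Cdk4 (71.3 FPKM) through Ccnd2 (39.0), Ccnd3 (26.3), Ccnd1 (24.3), Cdk2 (15), Ccna2 (11.7), Cdk1 and Ccnb1 (7.0 each) and Ccne1 (2.33) to Ccne2 (0.67). Ccnd1 and Ccnd3 did not differ beyond their spread, nor did Ccnb1 and Cdk1. In the cancers Cdk4 (94.2 FPKM) was followed by Ccna2 and Ccnd3 (22.2 each), Cdk1 (21.2) and Ccnb1 (20.8), which lay within 1 SD of each other. Then came Ccnd1 (14.8), Cdk2 (13.8), Ccnd2 (8.0), Ccne1 (6.8) and Ccne2 (4.0). These means pool cancers that differ. Within single libraries, Ccnd2 took places 2, 2 and 3 among the 10 genes in the controls and places 10, 8, 10, 8 and 6 in cancers 1 to 5, so that it was the lowest of all in cancers 1 and 3. Ccnd3 took places 3, 4 and 2 in the controls, place 2 in cancers 2 and 4 and place 5 in cancers 1, 3 and 5. Ccna2 took places 5, 6 and 6 in the controls and 2 to 4 in the cancers. The sum of the 3 D-type cyclins was 2.71, 4.74 and 3.80 times that of Ccna2, Ccnb1 and Cdk1 in the controls and 0.38, 1.10, 0.39, 1.57 and 0.69 times in the cancers. This ratio was chosen after the levels were seen, and it is independent of the scaling. The groups did not overlap, and cancers 1 and 3 had the lowest values.

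Around the members, 23 other cyclins, kinases and direct regulators of the cycle were examined. Of these, 9 were higher, 2 were lower and 12 did not pass the test (all genes tested, 16.2% higher and 18.3% lower), with a median log2 fold change of 0.77 (0.64 without Ccna1, which was listed at 0 in every control). Ube2c, a ubiquitin-conjugating enzyme that helps destroy cyclins, had FPKM of 34, 13 and 23 in the controls and 82, 74, 80, 36 and 52 in the cancers (log2 fold change 1.47, limma adjusted p = 0.021). Cks1b, a small subunit of cyclin-dependent kinases, had 18, 12 and 14 in the controls and 40, 38, 47, 23 and 45 in the cancers (1.32, limma adjusted p = 0.0079). Cdc20, an activator of the anaphase-promoting complex, had a log2 fold change of 1.33 (limma adjusted p = 0.043), and Cdc25c, a phosphatase that activates Cdk1, of 1.22 (limma adjusted p = 0.045). The genes that fell, named after their values were seen, were Wee1, a kinase that inhibits Cdk1 (-1.18, limma adjusted p = 0.0055), and Cdc25a, a phosphatase acting on Cdk2 (-0.48, limma adjusted p = 0.023). On TPM neither passed: Wee1 had -0.27 (limma adjusted p = 0.45) and Cdc25a had the opposite sign, 0.45 (limma adjusted p = 0.087). Against the median of all genes, Wee1 stood at -1.14 on FPKM and -1.08 on TPM, and Cdc25a at -0.44 and -0.36. With quantile normalization Wee1 was called lower (-0.99, limma adjusted p = 0.013). The count of 9 higher ran from 2 to 12 when each library was left out, was 2, 3 and 4 without controls 2, 3 and 1, 3 without cancer 3 and 5 without cancer 1. In these 8 fits Cks1b was called in all 8, Ube2c in 5, and Cdc20 and Cdc25c in 1 (without cancer 4). Wee1 was called lower in all 8, and Cdc25a not without control 1 or 3, nor with quantile normalization. Pkmyt1, a kinase that like Wee1 inhibits Cdk1, was among the higher genes (0.89, limma adjusted p = 0.013) and was also named after its values were seen. Pkmyt1 was not called without control 1 or 2, with quantile normalization or with the replicate block.

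Inhibitors of these kinases moved both ways. Of 8, 4 were higher, 2 lower and 2 did not pass (all genes tested, 16.2% higher and 18.3% lower), with a median log2 fold change of 1.21 (0.85 without Cdkn2a). Cdkn2a, which encodes p16INK4a and p19ARF, was listed at 0 in every control and had FPKM of 65, 58, 85, 29 and 62 in the cancers. Cdkn2c and Cdkn2d, inhibitors of Cdk4 and Cdk6, had log2 fold changes of 2.23 and 2.10 (adjusted p of 0.0027 for each from limma), whereas Cdkn1a, the p21 inhibitor induced by p53, fell by 1.94 (limma adjusted p = 0.041). With TPM Cdkn1a had -0.99 (limma adjusted p = 0.13), and against the median of all genes it stood at -1.90 on FPKM and -1.80 on TPM. The other lower call was Cdkn2b, named after its values were seen (-1.36, limma adjusted p = 0.029). Of these 2 lower calls none was left with TPM, or without cancer 3 or any 1 of the controls (Cdkn1a and Cdkn2b keep negative values with TPM), and 1 was left without cancer 1 or 4 (Cdkn2b) or cancer 5 (Cdkn1a).

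Other cyclins and kinases, many of which act mainly outside the division cycle, for example in transcription, splicing or neurons, served as a comparison within the family. Of 23, 3 were higher, 4 were lower and 16 did not pass, shares near those of all genes tested (16.2% higher and 18.3% lower), with a median log2 fold change of -0.04 (-0.07 without Cdk5r1). Cdk14, a kinase of Wnt signalling, had FPKM of 1, 1 and 2 in the controls and 14, 4, 8, 6 and 14 in the cancers (log2 fold change 2.03, limma adjusted p = 0.0088). Ccnl1, a cyclin of splicing, had a log2 fold change of 1.01 (limma adjusted p = 0.038), but of the 8 fits that leave out 1 library it was called only without cancer 2. It was not called without cancers 1 and 5 either, and with the replicate block neither Ccnl1 nor Cdk14 was called. Cdk5r1, an activator of the neuronal kinase Cdk5, had 1 or 2 in the cancers and was listed at 0 in every control. Ccng1, a p53 target, fell by 1.07 on the log2 scale (limma adjusted p = 0.0097) and had -0.13 with TPM (limma adjusted p = 0.69). Against the median of all genes, Ccng1 stood at -1.03 on FPKM and -0.94 on TPM. None of the 4 was called lower with TPM. Of the 4, Ccng1 and Cdk18 (named after its values were seen) were still called without cancer 1, 3 or 4 or control 2, and Ccng1 alone without control 1 or 3.

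**Figure D4:**
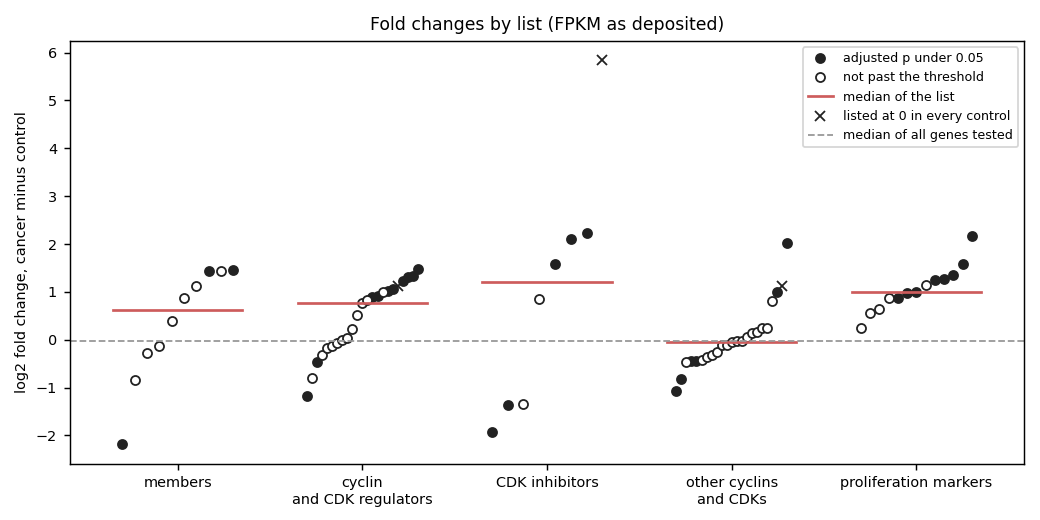
Log2 fold changes on FPKM (vertical axis) of the 10 members and of the 4 gene lists, 1 point a gene; filled points have an adjusted p under 0.05, crosses mark genes listed at 0 in every control, whose fitted value is no fold, and red lines are list medians. The medians are 0.63 for the members, 0.77 for the regulators, 1.21 for the inhibitors, -0.04 for the other cyclins and kinases and 1.004 for the proliferation markers.

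Markers of dividing cells were mostly higher in the cancers. Of 13, 8 were higher, 0 lower (0 also at an unadjusted p under 0.05, and 0 with TPM, from limma) and 5 did not pass, with a median log2 fold change of 1.004, where 16.2% of all genes tested were higher. E2f1 had 2.16 (adjusted p = 0.0028), Mcm2 1.57 (adjusted p = 0.0040), Mcm6 1.35 (adjusted p = 0.0086) and Mcm4 1.26 (limma adjusted p = 0.0041). E2f1 is itself an E2F target, and the Mcm genes encode the helicase that opens DNA for replication. Mki67, the gene of the Ki67 antigen, had FPKM of 10, 7 and 7 in the controls and 25, 13, 20, 11 and 11 in the cancers (0.86, limma adjusted p = 0.057). Like Ccnb1 and Cdk1, Mki67 was highest in cancers 1 and 3.

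**Figure D5:**
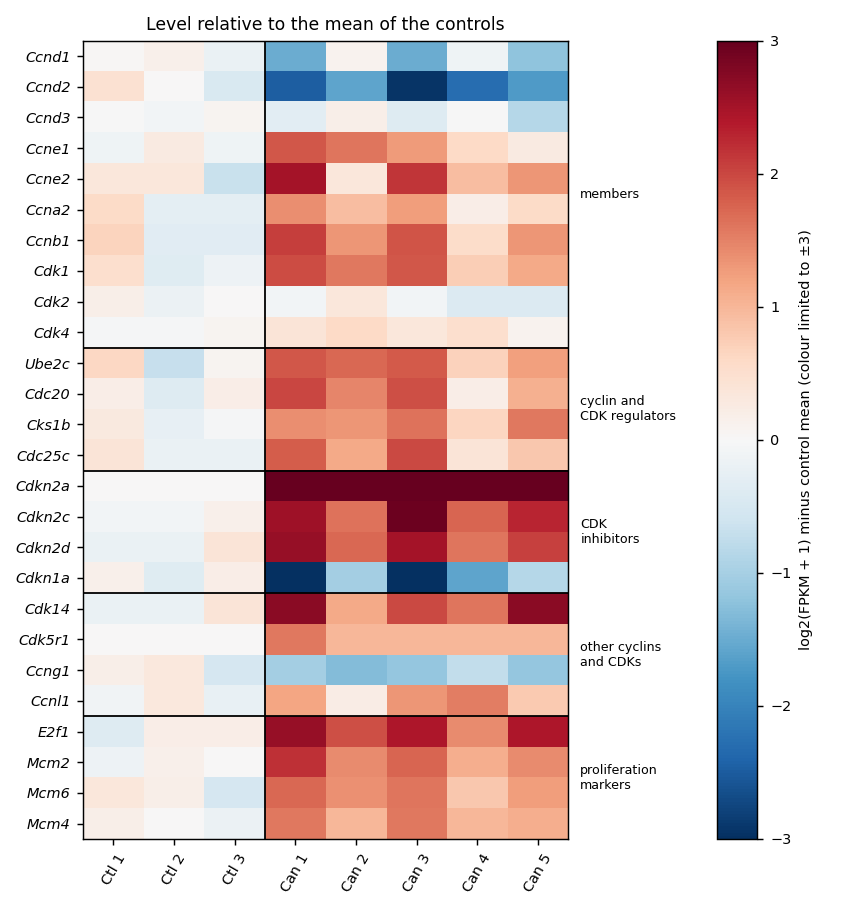
Log2(FPKM + 1) of the members and of the named list genes (rows) minus the mean of the 3 controls (Ctl), in each of the 8 libraries (columns; Can, cancer), with colours limited to 3 above or below. Ccnd2 is blue in all 5 cancers, Ccnd1 in cancers 1, 3 and 5, and the strongest red of Ccnb1 and Cdk1 is in cancers 1 and 3.

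Patterns like those of 4 members, 1 for each role, were sought among 9125 other genes with a mean of at least 5 FPKM, by the mean absolute difference of centred log2 levels over the 8 libraries. The closest to Ccnb1 were Tpx2 (0.12), Pbk (0.13) and Racgap1 (0.14), all genes of mitosis or cytokinesis. The closest to Ccnd1 were Ndufs6 (0.13), Lypd1 (0.15) and Antxr2 (0.16), with Ndufs6, a subunit of respiratory complex I, at 79, 198, 95, 201 and 100 FPKM in the cancers and 224 to 238 in the controls. For Ccne1 they were Aebp1 (0.15), Mmd (0.20) and Mcm5 (0.22), and for Cdk4 Ssna1 (0.055), Gfer (0.057) and Eme1 (0.065). Likeness over 8 libraries of 2 groups is a description.

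Markers of several other cell types differed between the groups beside these genes. Neuroendocrine markers (4 of 4 in the table) summed to 7568 to 16697 FPKM in the cancers and 120 to 181 in the controls. Parietal cell markers (4 of 4) summed to 0 to 2581 and 6561 to 12336, and simple epithelial markers (4 of 4) to 673 to 4477 and 5240 to 7365. Endothelial (3 of 3) and macrophage markers (3 of 4) summed to 11 to 37 and 8 to 26 in the cancers and to 4 to 8 and 7 in the controls. Squamous markers (5 of 5) summed to 0 to 1588 in the cancers and 1533 to 2572 in the controls and overlapped through cancer 4. In cancer 4, Krt5, Krt14 and Trp63 were above every control. Krt13 (494 FPKM against 961 to 1571) and Krt4 (96 against 337 to 725) were below every control there. Fibroblast (5 of 5), smooth muscle (5 of 5) and chief cell markers (3 of 3) overlapped too. Epcam, 1 of the 4 simple epithelial markers, went against their sum, at 314 to 592 FPKM in the cancers and 159 to 183 in the controls. The other simple epithelial markers, Krt8, Krt18 and Krt19, had lower means in the cancers. All 3 controls held pit, parietal and squamous genes. In the 2 cancers with the least parietal and pit RNA, cancers 1 and 3, Ccnb1 and Cdk1 were highest and Ccnd1 lowest. The part of cell make-up in these results was not tested.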

How the data were processed

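RNA of 5 SCJ cancers and of the SCJ of 3 controls was sequenced from polyA+ directional libraries. Per the labels and the paper's methods, the authors trimmed reads with cutadapt 1.8, aligned them to mm10 (TopHat2 2.0.13 is named in the submitters' processing notes), quantified UCSC genes with cuffquant and made FPKM with Cuffnorm 2.2.1. Strand and normalization options are not given in the sources used here. The deposited values are FPKM rounded to whole numbers (100% whole), treated as a score and never as read counts. Depth is unknown.

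A gene needed 1 FPKM or more in 3 libraries or more, and was fitted on log2(FPKM + 1) with limma 3.58.1 (eBayes with trend, R 4.3.3), with Benjamini-Hochberg adjustment over all 14357 genes and a threshold of 0.05. Fold changes are on that scale and understate changes of low genes. The fit was tested on simulated data. For single genes, all 56 assignments of labels gave an exact permutation p, two-sided (Python 3.11.15). The labels give no pairing by replicate number. Samples of the same number did not deviate together (correlations of deviations -0.02, -0.19 and -0.10), which cannot exclude a pairing. Of 119 list entries 118 were matched. The members and lists were chosen with earlier results of these data known. Named genes are the members, up to 4 genes past the threshold with the largest change in each list, Cdk6, Mki67, the 3 closest patterns of 4 members, Trp53, Rb1, and marker genes beside a result. Outside this rule, genes that overlap a member were added, and Wee1, Cdc25a, Pkmyt1, Cdkn2b, Cdk18 and Ccna1 were named after their values were seen. Alternatives were a pseudocount of 0.1, 2 other filters, TPM, quantile normalization, eBayes without trend, a replicate block, leaving out each sample and, chosen after seeing the data, leaving out cancers 1 and 5 together.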

Additional observations from a re-analysis of the deposited data

Results flagged for a closer look

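Among 17 results tested for a lone cancer (the log2 levels of the 10 members and the within-library shares and ratios), 2 had 1 of the 5 cancers far from the rest, where chance gives about 0.85. The Ccnd2 share of the D-type cyclins was 31.4% in cancer 5 and 12.5 to 17.6% in the other cancers, a gap of 0.728 of the range. The Ccne1 to Ccne2 ratio was 9.0 in cancer 2, where Ccne2 was 1 FPKM, and 1.0 to 2.0 in the other cancers, a gap of 0.875 of the range. At 1 FPKM the rounding alone can move such a ratio by a large factor. Cancer 5 is also the library with the hepatocyte genes (summed FPKM 445), and their part in the Ccnd2 share was not tested.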

How the results depend on the processing

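The count of genes changed (4948) was 7704 with TPM (93.1% of calls higher, against 47.0%), 1534 with the replicate block, and 2490 to 5252 when each library was left out, the lowest being 2490, 2643 and 2815 without controls 1, 2 and 3. Members called higher (2) numbered 8 with TPM, 4 with quantile normalization, 3 with the replicate block and 0 to 4 when each library was left out. They numbered 0 without control 2 or 3 (4 and 3 at an unadjusted p under 0.05, limma), 1 without cancer 3, and 4 without cancer 4 or 5. With cancers 1 and 5 left out there were also 2, but these were Ccne1 and Cdk4. Ccnd2 was the member called lower under every alternative run. Reversed signs were those of Ccnd1 (0.077 with TPM), Ccnd3 (0.668 with TPM, 0.028 with quantile normalization) and Cdk2 (0.798 with TPM, 0.071 with quantile normalization, 0.053 with the replicate block). TPM moved the median of all genes up as well. Against that median, Ccnd1, Ccnd3 and Cdk2 stood at -0.73, -0.14 and -0.01 with TPM, negative as on FPKM. With quantile normalization Ccnd3 and Cdk2 stood at 0.04 and 0.08 against the median. Of 159 alternative values of the members' log2 fold changes, 131 kept both sign and call, 15 kept the sign and newly passed the threshold, 7 kept the sign and no longer passed, and 6 reversed, among them Ccnd3 and Cdk2 with TPM, which also newly passed (limma adjusted p = 0.022 and 0.018). Ccne2 was not tested at a mean FPKM of at least 5. Among the list counts, the regulators higher (9) numbered 4 at a mean FPKM of at least 5, 19 with TPM and 5 with quantile normalization or the replicate block, and the regulators lower (2) 0 with TPM or the block. The inhibitors lower (2) and the other cyclins and kinases lower (4) numbered 0 with TPM, quantile normalization or the block. The other cyclins and kinases higher (3) numbered 14 with TPM and 1 with the block, and the proliferation markers higher (8) 13 with TPM and 5 with the block. For each of them the cause was not tested. Unknown depth and rounding limit what can be said of genes at a few FPKM, such as Ccne1, Ccne2 and Cdk6.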
